A study of Mus musculus with 13 samples.

Results

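The change in the poly-A transcriptome that accompanied spontaneous immortalization of mouse embryonic fibroblasts (MEFs) was examined in 2 genotypes at once, to find genes that moved the same way in both. All 13 of the 13 RNA-seq libraries of the series were members of this comparison, 7 from immortalized lines and 6 from primary cells. Every gene was fitted with an additive model of genotype and state, and the state term was tested. The wild-type (WT) libraries were 3 primary (clones 3, 4 and 5) and 3 immortalized (one line from each clone), and the study ties the libraries of one number to the same one of 3 embryos. The Prkd3-/- libraries, labelled as lacking the kinase gene Prkd3, were 3 primary (clones 13, 14 and 15) and 4 immortalized (lines 13, 13a, 14 and 15). All cells were grown in medium with 10% fetal calf serum, and cells of both genotypes that had reached senescence were kept in 20% serum until colonies grew out. Lines 13 and 13a carry the same clone number, so they may share an embryo. Each immortalized line grew from colonies that emerged after senescence, and the embryos' age, sex and strain are not in the labels.

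Primary MEFs are a mixed culture taken from a whole embryo body. They divide a limited number of times and then stop in senescence, an arrest held by the p16INK4a/RB and p19ARF/p53 pathways. In the 3T3 type of protocol the rare cells that escape this arrest found a line, so an immortalized line differs from its primary culture both in what each cell expresses and in which cells are left. In these bulk libraries, fewer cells of a type and less RNA per cell cannot be told apart.

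Library totals ranged from 35273408 to 100441756 counts. Levels are given as CPM, the usual depth-normalized counts, here with TMM factors, and at these depths 3 counts were worth between 0.0299 and 0.0851 CPM before scaling. Replicates of the WT primary cells lay close together, with a median SD over genes of 0.057 in log2 CPM, against 0.261 in WT immortalized, 0.199 in Prkd3-/- primary and 0.444 in Prkd3-/- immortalized libraries. Prkd3 itself was counted at 69.2 to 73.7 CPM in WT primary and 73.6 to 93.8 CPM in WT immortalized libraries. It was at 33.6 to 43.2 CPM in Prkd3-/- primary and 43.8 to 61.0 CPM in Prkd3-/- immortalized libraries, lower than WT in every library but not absent, and counts per gene cannot show the loss of single exons. The 16 fibroblast identity markers all passed the filter on low counts, with a summed level of 31780 to 102030 CPM per library.

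Far more of the genes that passed for state were lower than higher in immortalized cells. Of the 21197 genes tested, 148 (0.698%) passed for state in edgeR's quasi-likelihood test, which required a |Log2FC| of 1 or more together with a Benjamini-Hochberg adjusted p below 0.01. Of these, 144 (0.679%) were lower and 4 (0.0189%) higher in immortalized cells. At an unadjusted p under 0.05 the split was nearer to even, with 1964 genes lower (9.27%) and 1667 higher (7.86%). Over all genes tested the median Log2FC was 0.0588. Of them, 8054 were above 0 in both genotypes and 5669 (26.7%) below 0 in both. A gene was taken to have moved alike when it was called for state, had a |Log2FC| of at least 1 with that sign within WT and within Prkd3-/-, and had no called difference between genotypes. By this definition 147 genes (0.693%) moved alike, 143 lower (0.675%) and 4 higher (0.0189%), and 122 of the 147 were protein-coding. The last condition removed no gene, since 0 genes had a called difference, and without it the number was also 147. Moved alike thus means the same direction in both genotypes, and not a change of equal size. With the clone number as a block, which compares each line with the primary cells of its own embryo, 18 genes were called, all 18 of them lower and among the 147. The 1 called gene outside the definition was Atp13a2, a lysosomal transporter, with a Log2FC of -0.98 in WT and -1.19 in Prkd3-/- (adjusted p = 0.00568, and 0.0450 with the clone block, in edgeR).

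The 143 genes that fell had a median Log2FC of -4.27, with -4.49 in WT and -3.94 in Prkd3-/-, and a range from -1.07 to -8.77. In all 7 lines each of the 143 genes was below the primary mean of its own genotype. The median log2 ratio over the 143 genes was -4.23, -4.46 and -3.93 in WT lines 3, 4 and 5, and -3.83, -2.49, -3.46 and -3.59 in Prkd3-/- lines 13, 13a, 14 and 15. Line 13a was the closest to primary cells, and it was the highest of the 4 Prkd3-/- lines for 81 of the 143 genes, against 18.1% of all genes tested. For 130 of the 143 genes no immortalized library reached any primary library of its own genotype, which was the case for 2.92% of all tested genes, and for 118 none reached any primary library at all (1.88% of all tested genes). These values describe genes that were chosen on this contrast. Most were expressed at low levels, since 53 had a mean below 1 CPM in the primary libraries, 27 a mean above 10 CPM and 3 a mean above 100 CPM.

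The 12 genes with the smallest p-values among those that fell encode secreted proteins, membrane proteins and a few regulators. A2m, which encodes the secreted protease inhibitor alpha-2-macroglobulin, was at 0.797, 0.871 and 0.411 CPM in WT primary clones 3, 4 and 5 and at 0.369, 0.453 and 0.365 CPM in Prkd3-/- primary clones 13, 14 and 15. It had a single count in the 7 immortalized libraries together, in line 13a, against 249 in the primary ones, a ratio of 253 (95% exact interval 44.9 to 10018, counting error only). The groups did not overlap in either genotype (adjusted p = 0.000233).

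Angptl7 (chr4:148495183-148500460, GRCm38, minus strand), a secreted angiopoietin-like protein, had the highest primary level among the 12. It stood at 105, 109 and 126 CPM in the WT primary libraries and at 0.145, 0.0508 and 0.122 CPM in the WT lines. In Prkd3-/- it was at 46.4, 5.68 and 51.6 CPM in primary clones 13, 14 and 15 and at 0.0764, 0.425, 0.0469 and 0.0675 CPM in lines 13, 13a, 14 and 15. Every line was below every primary library, and clone 14 was the low primary (Log2FC -8.77, SE 0.788, adjusted p = 0.000233).

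Slc16a12 (chr19:34668403-34747289), a monocarboxylate transporter family member, was at 4.49, 3.76 and 3.79 CPM in WT primary and 0.274, 0.169 and 0.214 CPM in WT immortalized libraries. In Prkd3-/- it was at 4.97, 2.7004 and 2.86 CPM in primary and 0.0573, 0.0685, 0.0156 and 0.0405 CPM in immortalized libraries. The primary libraries of the genotypes overlapped in level, and all lines lay below them (Log2FC -5.19, SE 0.439, adjusted p = 0.000233). Pla2g7 (chr17:43568098-43612201), which encodes the secreted platelet-activating factor acetylhydrolase, was at 23.8 to 25.3 CPM in WT primary and 1.81 to 2.32 CPM in WT immortalized libraries. In Prkd3-/- it was at 19.2 to 28.05 CPM in primary and 1.32 to 5.30 CPM in immortalized libraries, with line 13a the highest (Log2FC -3.35, SE 0.305). Cul9 (chr17:46500572-46546388), a cullin family protein that binds p53 in the cytoplasm, was at 9.98 to 10.9 CPM in WT primary and 0.628 to 0.914 CPM in WT immortalized libraries. In Prkd3-/- it was at 8.35 to 14.6 CPM in primary and 0.281 to 1.92 CPM in immortalized libraries (Log2FC -3.43, SE 0.367, adjusted p = 0.000958).

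C2cd4a, a nuclear C2-domain protein, and Vat1l, a relative of the synaptic vesicle protein VAT-1, fell from 4.40 to 6.47 CPM and from 5.17 to 6.69 CPM in WT primary libraries to at most 0.0339 and 0.0508 CPM in the WT lines. In the Prkd3-/- primary libraries C2cd4a was at 3.05, 0.213 and 2.41 CPM and Vat1l at 5.29, 1.05 and 2.72 CPM, so that clone 14 was again the low one for both, while the lines stayed at or below 0.0137 and 0.0764 CPM. The X-linked Tenm1 (teneurin 1, a transmembrane protein of synaptic adhesion) had 2 counts in all lines against 275 in the primary libraries, a ratio of 139.5 (95% exact interval 38.3 to 1158). Dcaf12l2, also X-linked, had 1 count against 129, a ratio of 131 (95% exact interval 23.1 to 5209). Ntm (neurotrimin, an immunoglobulin-family adhesion protein of neurons) had 1 count against 114, a ratio of 116 (95% exact interval 20.3 to 4608). Tenm1 was at 1.04 to 1.23 CPM in WT primary but 0.0647 to 0.281 CPM in Prkd3-/- primary libraries. The corresponding levels were 0.348 to 0.554 and 0.0922 to 0.213 CPM for Dcaf12l2, and 0.338 to 0.465 and 0.0740 to 0.196 CPM for Ntm. The ratios of these genes pool both genotypes and thus rested more on WT. Fgf16, a fibroblast growth factor, had a Log2FC of -3.17 (SE 0.304, adjusted p = 0.000361). All 12 genes were still called with each of the 13 libraries left out in turn, as were 30 of the 147 genes in all. With the clone number as a block 9 of the 12 passed, and Fgf16, Barx1 and Ntm did not (adjusted p = 0.0152, 0.0176 and 0.0212 in edgeR). In limma voom with a weight per state, an alternative test, Angptl7, C2cd4a and Vat1l were not called (adjusted p = 0.0590, 0.0913 and 0.0275).

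**Figure D1:**
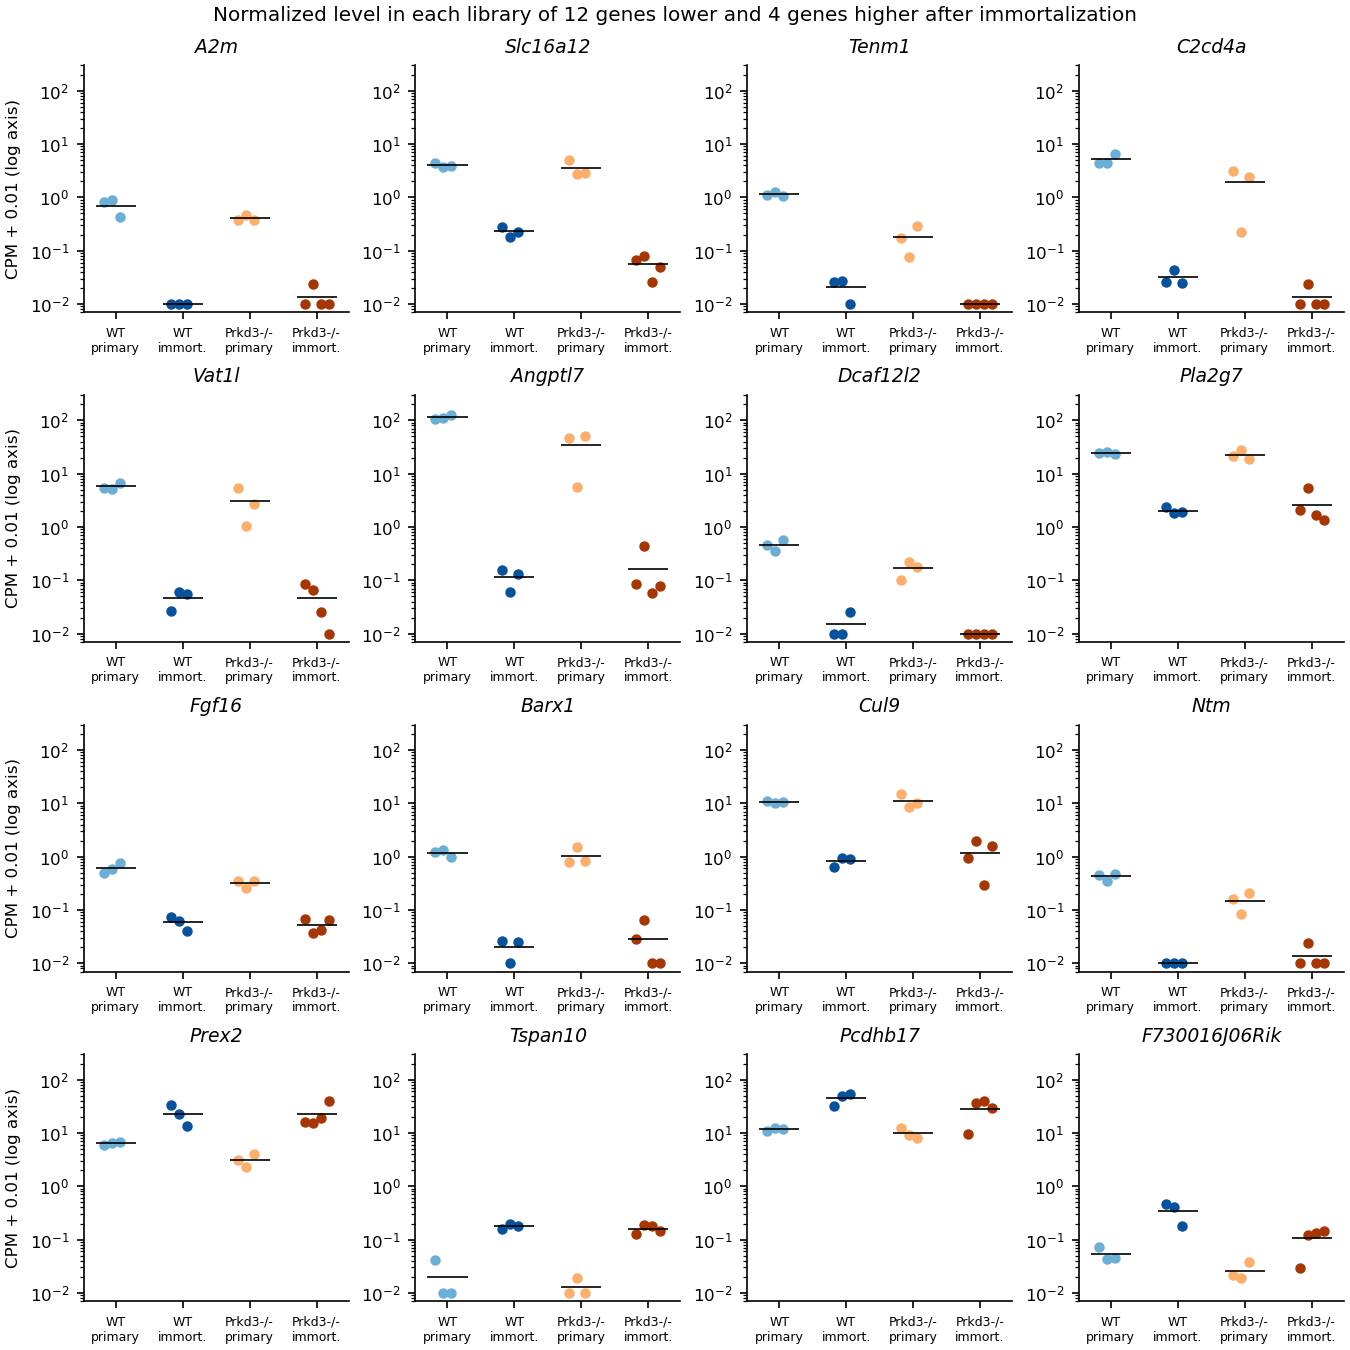
CPM plus 0.01 on a log axis for each library (points) and group mean (black line), in WT and Prkd3-/- primary and immortalized (immort.) groups, for the 12 genes lower and the 4 genes higher with the smallest p-values among genes that moved alike. In the first 12 panels every immortalized point is below every primary point of its genotype, and in the last row the immortalized points are mostly above, with line 13 at 9.47 CPM for Pcdhb17 among the primary values.

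Some regulators of embryonic patterning were among the genes that fell in both genotypes. Of 57 tested limb and body patterning factors, 4 moved alike and all 4 fell, Barx1, Lhx2 and Uncx among them, against 0.675% of all genes tested. The list as a whole was not lower in both genotypes, since its median was -0.76 in WT and 0.09 in Prkd3-/-, against 0.06 for all genes tested. With 1 library left out 2 to 5 of the list were called lower, and with the clone block 1, which was Lhx2. Lhx2 was not called by voom (adjusted p = 0.231). Barx1, a homeodomain factor of branchial arch and stomach mesenchyme, was at 1.23, 1.33 and 0.966 CPM in WT primary and 0.784, 1.48 and 0.814 CPM in Prkd3-/- primary libraries. It was at or below 0.0161 CPM in the WT lines and at or below 0.0548 CPM in the Prkd3-/- lines, with no overlap (Log2FC -6.01, SE 0.613, adjusted p = 0.000591).

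Lhx2, a LIM-homeodomain factor of limb outgrowth and forebrain, was at 2.13, 2.26 and 5.94 CPM in WT primary and 5.64, 0.333 and 4.35 CPM in Prkd3-/- primary libraries, with clone 14 low. All 7 lines were at 0.0156 to 0.191 CPM (Log2FC -5.34, SE 0.702, adjusted p = 0.00355). Uncx, a homeodomain factor of the somites, had a Log2FC of -5.22 (SE 0.770). Further homeodomain factors were named after their values were seen. Isl1, a LIM-homeodomain factor of motor neurons and heart, and Hmx1, a factor of the eye and ear, were both without a count in any of the 7 lines. Pooled over libraries, against a floor of 3 counts over the group, Isl1 was at least 34.2-fold lower and Hmx1 at least 35.2-fold lower. These bounds pool the genotypes and do not give the fall within each. Pou3f3, a POU-domain factor of neural and kidney development, was at 0.702 to 3.09 CPM in the 6 primary libraries, at 0 in the 3 WT lines and at 0 to 0.110 CPM in the Prkd3-/- lines. Uncx, Isl1, Hmx1 and Pou3f3 were called in 6 or 7 of the 13 fits that left out 1 library, and with the clone block their adjusted p-values were 0.0505, 0.178, 0.178 and 0.0680 (edgeR). Of the 36 tested Hox genes, which set position along the body axis, 0 were called by edgeR, with 3 lower and 2 higher at an unadjusted p under 0.05 and 2 called lower by DESeq2.

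The start regions of the genes that fell were compared with those of all genes, because genes that move together may share letters there. RefSeq start regions (GRCm38.p6) were found for 107 of the 143 genes and for 12486 of the symbols tested, and the 250 bases before each start were read on the gene's own strand. Where a gene had several starts, its highest CG count was used, and letters counted when found before any of its starts. The set of all tested genes was not matched in level to the genes that fell. The dinucleotide CG occurred a median of 8 times in the regions of the genes that fell, against 16 over all tested genes, and 43 of the 107 (40.2%) had at most 5, against 16.6% of all. The letters AGGAAGT, read on both strands and chosen after values were seen as the core bound by ETS-family factors such as PU.1, occurred in 22 of the 107 (20.6%), against 8.69% of all. TATAAA occurred in 15 (14.02%) against 8.69%, GGGCGG in 47 (43.9%) against 59.7%, and TGAGTCA in 7 (6.54%) against 4.40%. A match of letters is a description and not a binding site. Angptl7 and Barx1 are shown as a CG-poor and a CG-rich region with each CG in capitals, and the leukocyte genes Plcb2 and Ptpn6 with AGGAAGT, or its reverse complement, in capitals.
Angptl7, chr4:148500463-148500712, minus strand: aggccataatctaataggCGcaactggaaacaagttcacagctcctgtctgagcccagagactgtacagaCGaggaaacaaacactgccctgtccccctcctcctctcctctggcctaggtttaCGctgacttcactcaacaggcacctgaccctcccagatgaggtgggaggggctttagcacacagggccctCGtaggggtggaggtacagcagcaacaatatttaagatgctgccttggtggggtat
Barx1, chr13:48662786-48663035, plus strand: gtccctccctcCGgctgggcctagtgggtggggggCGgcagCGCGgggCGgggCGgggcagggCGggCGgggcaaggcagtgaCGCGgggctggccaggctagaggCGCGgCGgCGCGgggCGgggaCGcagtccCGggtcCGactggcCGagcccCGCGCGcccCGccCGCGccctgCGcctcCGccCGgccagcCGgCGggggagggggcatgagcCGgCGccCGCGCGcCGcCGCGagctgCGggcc
Plcb2, chr2:118728439-118728688, minus strand: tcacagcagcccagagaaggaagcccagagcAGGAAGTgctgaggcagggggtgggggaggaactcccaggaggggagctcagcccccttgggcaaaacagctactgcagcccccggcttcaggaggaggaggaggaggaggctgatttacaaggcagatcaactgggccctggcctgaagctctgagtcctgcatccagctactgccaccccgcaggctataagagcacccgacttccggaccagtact
Ptpn6, chr6:124738710-124738959, minus strand: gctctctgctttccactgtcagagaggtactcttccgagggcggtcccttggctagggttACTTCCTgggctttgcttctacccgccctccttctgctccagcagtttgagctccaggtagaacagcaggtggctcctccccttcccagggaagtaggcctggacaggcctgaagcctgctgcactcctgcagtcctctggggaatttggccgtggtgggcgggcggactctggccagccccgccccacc
The Angptl7 region held 4 CG and that of Barx1 held 40, although both genes fell in both genotypes. The AGGAAGT letters began 219 bases before the start in Plcb2 and 190 in Ptpn6.

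Genes of leukocytes formed another group among those that fell. Of 26 tested genes of lymphoid and myeloid signaling, 4 moved alike and fell (Fgr, Arhgdib, Ptpn6 and Pik3cd), against 0.675% of all genes tested, and the list median was -3.76. The calls other than Fgr rested on single libraries, since Arhgdib was called in 4, Ptpn6 in 2 and Pik3cd in 1 of the 13 fits that left out 1 library. With the clone block none of the 4 passed (adjusted p = 0.0180 to 0.0566 in edgeR). Fgr, a SRC-family kinase of myeloid cells, was at 1.26, 0.828 and 1.73 CPM in WT primary and 0.242, 0.0832 and 0.253 CPM in Prkd3-/- primary libraries. It was at 0.0161, 0.0847 and 0.0765 CPM in the WT lines and at 0.0191 CPM or less in the Prkd3-/- lines, and the groups did not overlap within a genotype (Log2FC -4.36, SE 0.534, adjusted p = 0.00206). Ptpn6, the phosphatase SHP-1 of blood cells, was at 25.1, 26.1 and 26.9 CPM in WT primary and 3.97, 23.2 and 6.03 CPM in Prkd3-/- primary libraries. Its lines were at 0.999 to 1.55 CPM in WT and 0.191 to 2.48 CPM in Prkd3-/- (Log2FC -3.85, SE 0.643, adjusted p = 0.00879).

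Arhgdib, a GDP-dissociation inhibitor of small GTPases in blood cells, changed less, from 122 to 169 CPM in the 6 primary libraries to 42.3 to 89.6 CPM in the 7 lines (Log2FC -1.11, SE 0.180). Pik3cd, a catalytic PI3-kinase subunit of leukocytes, had a Log2FC of -1.63 (SE 0.280). Among leukocyte genes named after their values were seen, the phospholipase Plcb2 fell with a Log2FC of -4.13 (SE 0.509), the adaptor Dok2 with -4.34 (SE 0.514) and Cytip, a regulator of leukocyte adhesion, with -5.41 (SE 0.668). The inflammasome sensor Nlrp3 fell by 4.91 (SE 0.670), while the scavenger receptor Stab1 had a Log2FC of -3.46 (SE 0.583). Dcstamp, which drives fusion of osteoclasts, had 2 counts in the 7 lines against 168 in the primary libraries, a ratio of 85.2 (95% exact interval 23.2 to 709), and Acp5, the tartrate-resistant phosphatase of osteoclasts and macrophages, fell by 5.71 (SE 0.858). Plcb2, Dok2, Cytip and Dcstamp were called with each library left out, Nlrp3 in 9 of the 13 fits, Acp5 in 3 and Stab1 in 2. With the clone block the adjusted p-values of these 7 genes were 0.0402 to 0.0779 (edgeR).

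All 21 tested macrophage markers had a Log2FC below 0 in both genotypes, with a list median of -3.70, and 2 of them, Cx3cr1 and Csf1r, passed. They were called in 5 and 2 of the 13 fits that left out 1 library, and with the clone block their adjusted p-values were 0.0536 and 0.0605 (edgeR). Cx3cr1, the fractalkine receptor, was at 103, 102 and 105 CPM in WT primary and at 4.56, 77.3 and 14.2 CPM in Prkd3-/- primary libraries. The WT lines were at 0.790, 1.49 and 0.857 CPM and the Prkd3-/- lines at 0, 1.37, 0.156 and 0.0945 CPM, with no overlap (Log2FC -6.44, SE 0.914, adjusted p = 0.00565). Csf1r, the receptor for macrophage growth factor, was at 210 to 212 CPM in WT primary and 35.4 to 181 CPM in Prkd3-/- primary libraries, against 14.01 to 23.4 CPM and 8.32 to 38.5 CPM in the lines, so that line 13a exceeded primary clone 13 (Log2FC -2.95, SE 0.467, adjusted p = 0.00734). Other markers of the list, named after their values were seen, did not pass. The lysosomal marker Cd68 was at 0.891 to 1.59 CPM in Prkd3-/- lines 13, 14 and 15 but at 30.9 CPM in line 13a, above primary clones 13 (12.4 CPM) and 15 (22.6 CPM), and had a Log2FC of -3.27 (adjusted p = 0.0895). The complement gene C1qa had a Log2FC of -3.81 (adjusted p = 0.125), the pan-leukocyte phosphatase Ptprc one of -4.11 (adjusted p = 0.0648) and Adgre1, the F4/80 antigen, one of -2.85 (adjusted p = 0.283).

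The summed level of the macrophage markers was 2206, 2193 and 2138 CPM in WT primary clones 3, 4 and 5 and 123, 78.6 and 198 CPM in their lines. In Prkd3-/- it was 223, 2862 and 536 CPM in primary clones 13, 14 and 15 and 23.1, 484, 16.5 and 29.1 CPM in lines 13, 13a, 14 and 15. The Prkd3-/- primary cultures thus spanned a wide range, and line 13a held more than primary clone 13. No marker of the list was at 0 in all 7 lines. With 1 library other than line 13a left out, 0 to 2 of the 21 macrophage markers and 1 to 3 of the 26 signaling genes were called lower, and with the clone block 0 and 0. The macrophage count was 0 without any 1 of the 6 WT libraries, primary clone 14 or line 15 of Prkd3-/-. Without line 13a, 14 of the 21 macrophage markers and 16 of the 26 signaling genes were called lower, and without both line 13a and primary clone 13, a choice made after the levels were seen, 15 and 14. DESeq2 on all libraries called 12 and 17 lower. Over the 143 genes that fell, primary clone 14 was above 2 times both other Prkd3-/- primary libraries for 40 genes (27.97%, against 6.79% of all genes tested) and below 0.5 times both for 31 genes (21.7%, against 5.78%). The part of the cell mixture in the gene-by-gene changes was not tested.

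**Figure D2:**
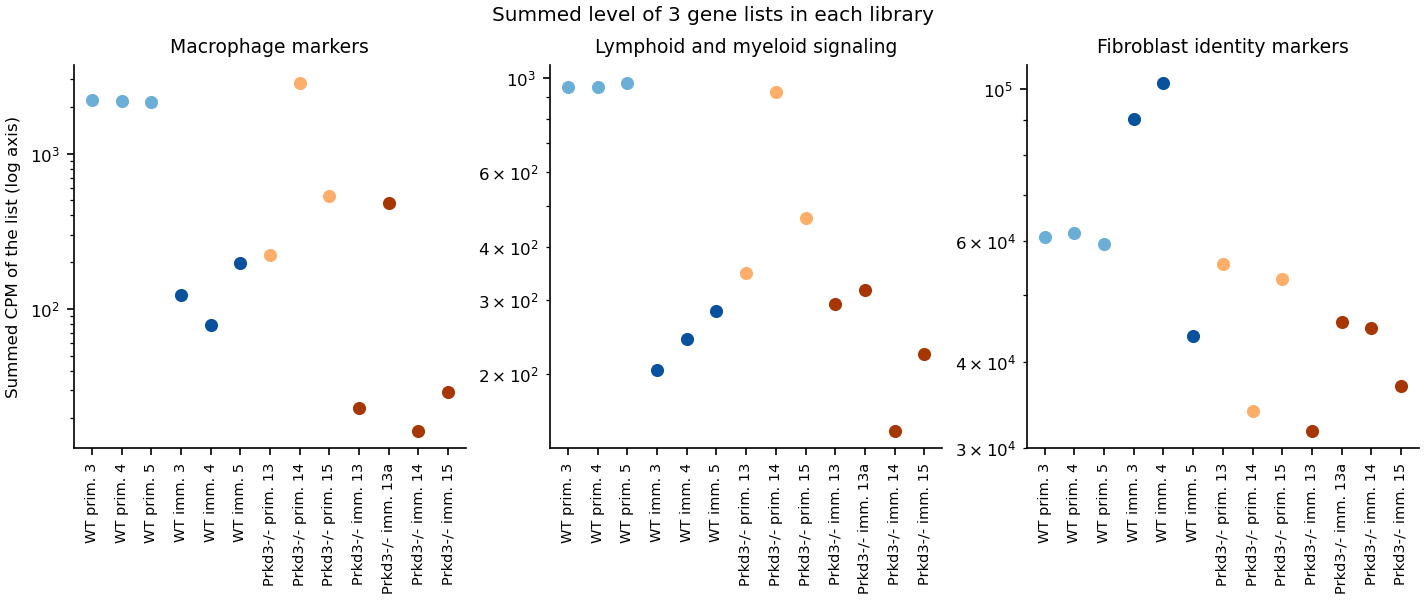
Summed CPM of 3 gene lists in each of the 13 libraries, on log axes that do not start at 0, for primary (prim.) and immortalized (imm.) libraries. Macrophage markers run from 2138 to 2206 CPM in WT primary and from 16.5 to 484 CPM in the Prkd3-/- lines, line 13a being the high one, while fibroblast identity markers of primary and immortalized libraries overlap.

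Lists of adhesion, matrix and secreted signaling genes held 1 or 2 genes each that passed and fell, against 0.675% of all genes tested. These calls are values of single genes and do not say how the other members moved. Of 24 tested cadherins and delta-protocadherins, Cdh8 and Cdh15 moved alike. In that list 8 were lower at an unadjusted p under 0.05 in edgeR, against 9.27% of all genes tested, and DESeq2 called 3 lower. Cdh8, a cadherin of neurons, had 0 counts in all 7 lines against 212 in the primary libraries. It was at least 71.7-fold lower against a floor of 3 counts over the group (adjusted p = 0.00430 in edgeR). Its primary level was 0.797 to 1.11 CPM in WT but 0.0231 to 0.0462 CPM in Prkd3-/-. In the Prkd3-/- primary libraries 3 counts were worth 0.0277 to 0.0842 CPM. The fold thus rested mainly on WT, and the fall of Cdh8 in Prkd3-/- was near the floor. Marker lists of other cell types had medians below that of all genes, at -1.81 for 7 neuronal, -1.63 for 9 Schwann and neural crest, -1.0001 for 11 endothelial and -0.73 for 5 skeletal muscle genes, with 0 called by edgeR in each, 3, 4, 4 and 3 lower at an unadjusted p under 0.05 and 2, 2, 1 and 1 called lower by DESeq2. Their summed levels in the 6 primary libraries were 120 to 161, 4.69 to 16.1, 81.9 to 113 and 5.08 to 30.5 CPM. In the 7 lines they were 15.9 to 188, 1.54 to 13.9, 17.7 to 185 and 0.401 to 24.0 CPM, and no marker of these lists was at 0 in every line. All lines were below the primary cells of their genotype for the neuronal sum in Prkd3-/- and for the Schwann and skeletal muscle sums in WT, and overlapped them otherwise. The part of such cells in the changes of Cdh8, Ntm, Cdh15 and other genes was not tested. Cdh15, the M-cadherin of muscle precursors, was at 0.253 to 0.491 CPM in the 6 primary libraries and at 0 to 0.145 CPM in the lines (Log2FC -3.73, SE 0.632). Of 26 immunoglobulin-family adhesion genes, Ntm and Alcam moved alike, and the list median was -1.22. It was -1.66 in WT and -0.83 in Prkd3-/-. At an unadjusted p under 0.05 in edgeR 13 of the 26 were lower and 1 higher, against 9.27% and 7.86% of all genes tested. In both genotypes 6 were lower without overlap, against 2.92% of all genes, and DESeq2 called 11 lower. With the clone block 0 were called. Alcam, which binds CD6 on T cells, was at 138 to 206 CPM in the primary libraries and 30.8 to 108 CPM in the lines (Log2FC -1.43, SE 0.218, adjusted p = 0.00663).

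Among 34 matrix glycoproteins and proteoglycans 1 moved alike, Tnn, which encodes tenascin-N of periosteum and bone. Tnn was at 56.3, 52.5 and 129 CPM in WT primary and 189, 4.01 and 63.8 CPM in Prkd3-/- primary libraries, and at 0.129, 2.01 and 5.28 CPM and 0.134 to 0.391 CPM in the lines, so that clone 14 was below WT line 5 (Log2FC -6.87, SE 1.15, adjusted p = 0.00921). Among 29 matrix proteases and inhibitors 1 moved alike, Adamts3, a procollagen N-proteinase that also activates VEGF-C, with a Log2FC of -5.25 in WT and -2.97 in Prkd3-/- (adjusted p = 0.00568). Of 37 axon guidance genes 1 moved alike, the secreted semaphorin Sema3d, at 43.5 to 56.3 CPM in WT primary and 6.90 to 130 CPM in Prkd3-/- primary libraries, against 0.694 to 2.75 and 0.766 to 5.95 CPM in the lines. Reln, the secreted guidance protein reelin, fell by 5.18 on the log2 scale (SE 0.800), and the integrin chain Itga4 had a Log2FC of -2.99 (SE 0.509). Both were named after their values were seen.

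Of 50 growth factors and receptors 1 moved alike, Fgf9 (Log2FC -4.60, SE 0.712), and of 47 TGF-beta and BMP genes 1, the type I receptor Acvrl1. Acvrl1 was at 13.7 to 19.3 CPM in all 6 primary libraries and at 0.779 to 8.26 CPM in the lines, line 14 of Prkd3-/- being the highest (Log2FC -2.63, SE 0.429, adjusted p = 0.00831). Of 17 complement genes 1 moved alike, Cfp, which encodes properdin, and of 31 imprinted genes 1, Zdbf2, a paternally expressed gene. Zdbf2 was at 13.2 to 14.2 CPM in WT primary and 6.01 to 16.8 CPM in Prkd3-/- primary libraries. Its level was 0.152 to 0.226 CPM in the WT lines and 0.115 to 2.44 CPM in the Prkd3-/- lines, line 13a being the highest (Log2FC -4.75, SE 0.753, adjusted p = 0.00737). Further genes were named after their values were seen and stand for no pathway. Gucy1a1 and Gucy1b1, which encode subunits of soluble guanylate cyclase, had a Log2FC of -5.88 (SE 0.881) and -4.65 (SE 0.768), and the adenylate cyclase Adcy7 one of -1.89 (SE 0.236). The neuropeptide gene Adcyap1 had 0 counts in every line and was at least 36.5-fold lower, pooled over both genotypes against a floor of 3 counts. Hpgd, which breaks down prostaglandins, fell by 4.38 (SE 0.720), while the Wnt receptor Fzd10 had a Log2FC of -3.82 (SE 0.597) and Ndp, which encodes the Frizzled ligand norrin, one of -4.89 (SE 0.789). Of the genes in these lists, Ntm was called with each library left out, Cdh8 in 9 of the 13 fits, Alcam in 6, Adamts3 in 5, Fgf9 in 4, Tnn, Sema3d and Zdbf2 in 3, and Cdh15, Acvrl1 and Cfp in 2. Of those named after their values were seen, Adcy7 was called in all 13, Adcyap1 in 8, Reln and Fzd10 in 4, Gucy1a1 in 3, Hpgd and Ndp in 2, and Gucy1b1 and Itga4 in 1. With the clone block Sema3d passed (adjusted p = 0.00297) and the others had adjusted p-values of 0.0212 to 0.163 (edgeR). Of the 143 genes that fell, 122 belonged to none of the 39 lists.

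In all, 4 genes rose in both genotypes, and 2 of them, Prex2 and Tspan10, did so without overlap over the 13 libraries, as did 0.642% of all tested genes. None of the 4 was called in every fit that left out 1 library (Prex2 in 8 of the 13, Tspan10 in 5, Pcdhb17 and F730016J06Rik in 2), 0 to 7 genes being called higher in those fits. With the clone block 0 genes were higher, and the 4 had adjusted p-values of 0.0288 to 0.0678 (edgeR). Prex2, an exchange factor for the GTPase Rac, was at 5.83, 6.43 and 6.87 CPM in WT primary and 3.10, 2.32 and 3.96 CPM in Prkd3-/- primary libraries. It was at 32.8, 22.5 and 13.5 CPM in WT lines 3, 4 and 5 and at 15.9, 15.6, 19.4 and 40.1 CPM in Prkd3-/- lines 13, 13a, 14 and 15. All lines lay above all primary libraries (Log2FC 2.38, SE 0.326, adjusted p = 0.00430). Tspan10, a tetraspanin, was at 0.0307 CPM or less in the primary libraries and at 0.115 to 0.186 CPM in the 7 lines, without overlap (Log2FC 4.23, SE 0.618, adjusted p = 0.00568). In the primary libraries 3 counts were worth 0.0277 to 0.0842 CPM, and in the lines 0.0405 to 0.0573 CPM. The primary values of Tspan10 thus lay near or below the floor, and the size of its fold is uncertain.

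Pcdhb17, a clustered protocadherin with close relatives that can share reads, rose from 11.0 to 12.2 CPM in WT primary to 32.6 to 54.6 CPM in WT immortalized libraries, and in Prkd3-/- from 8.11 to 12.1 CPM to 28.9 to 39.9 CPM in lines 13a, 14 and 15, while line 13 at 9.47 CPM stayed among the primary values (Log2FC 1.74, SE 0.287, adjusted p = 0.00831). The uncharacterized F730016J06Rik had a Log2FC of 2.83 (SE 0.478, adjusted p = 0.00922), and line 13 was again among the primary values. In Prkd3-/- it was at 0.0191 CPM in line 13 and at 0.110 to 0.135 CPM in the other lines. There 3 counts were worth 0.0405 to 0.0573 CPM, so this fold also rested on few counts. At an adjusted p under 0.01 with a |Log2FC| below 1, 5 further genes were higher and 5 lower. Those lower were the Golgi protein gene Golm1 (-0.65), the sorting nexin gene Snx10 (-0.98), Wrap73 (-0.72), Gm21969 (-0.74) and B430305J03Rik (-0.77), named for the count. Among those higher were the polycomb subunit Bmi1, a repressor of the Ink4a/Arf locus (Log2FC 0.81, SE 0.132, adjusted p = 0.00806), the kinesin adaptor Trak2 (0.50, SE 0.0819), Rps26-ps1 (0.62, SE 0.0910), a ribosomal protein pseudogene, and Gm13050 (0.81, SE 0.126). Counts of Rps26-ps1 are uncertain, because ribosomal protein genes have near-identical copies. Bmi1 was at 44.0 to 47.5 CPM in WT primary and 67.8 to 108 CPM in WT immortalized libraries, and at 49.3 to 58.1 and 74.3 to 116 CPM in Prkd3-/-, so that all lines were above all primary libraries. With the clone block the adjusted p-values of Bmi1, Trak2, Rps26-ps1 and Gm13050 were 0.0402 to 0.0683 (edgeR), and Bmi1 kept an adjusted p under 0.01 in 10 of 25 alternatives.

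Pathways of proliferation and senescence showed no shared change that passed. Among the 18 genes of the senescence gate 0 were called by edgeR, with 1 lower and 2 higher at an unadjusted p under 0.05 and 0 called by DESeq2. Cdkn2a, which encodes p16INK4a and p19ARF, was at 58.2 to 61.5 CPM in WT primary and 61.0 to 215 CPM in WT immortalized libraries. In Prkd3-/- it was at 64.0 to 85.9 CPM in primary cells and at 0.229, 187, 69.2 and 85.3 CPM in lines 13, 13a, 14 and 15, line 13 being far below all other libraries. Its neighbour Cdkn2b, which encodes p15INK4b, was at 0.134 CPM in line 13 and at 21.4 to 104 CPM in the other lines. Cdkn1a, the p21 target of p53, had a Log2FC of -0.63 (SE 0.275, adjusted p = 0.266) and Trp53, which encodes p53, one of 0.35 (SE 0.186, adjusted p = 0.368). Cdkn2a, Cdkn2b, Cdkn1a and Trp53 were named outside the rule, with results of these data known. The highest members of this list by mean CPM were Ccnd2 and Ccnd1, cyclins of the G1 phase, with a Log2FC of 0.06 (SE 0.381) and -0.02 (SE 0.217).

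The 26 DNA replication genes and the 23 mitosis genes had medians of opposite sign in the genotypes, -0.38 in WT and 0.69 in Prkd3-/- for replication and -0.37 and 0.52 for mitosis, with 0 called by edgeR or DESeq2 in both lists and 1 and 0 genes at an unadjusted p under 0.05. Among the 27 type I interferon response genes, 22 were below 0 in both genotypes, against 26.7% of all genes tested, and the list median was -1.17. None of the 27 was called by edgeR (3 at an unadjusted p under 0.05, 1 called by DESeq2), and WT line 5 had a summed level of 1457 CPM, above the 241 to 965 CPM of the primary libraries, against 115 to 491 CPM in the other lines. The fibroblast identity list had a median of -0.02 and 0 called by edgeR (2 lower and 1 higher at an unadjusted p under 0.05, 0 called by DESeq2). Its highest members by mean CPM, Fn1 (fibronectin) and Col1a1 (a chain of type I collagen), had a Log2FC of 0.01 (SE 0.349), which was -0.06 with scaling by library size alone, and of 0.17 (SE 0.272). Medians of the lists for collagens, oxidative phosphorylation, glycolysis and cholesterol synthesis lay between -0.0017 and 0.0779. In these 4 lists edgeR called 0 genes, with 5, 3, 8 and 1 at an unadjusted p under 0.05 in that order, and DESeq2 called 1, 0, 4 and 1 lower. In all, 12 of the 39 lists held a gene that moved alike and 27 held none.

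**Figure D3:**
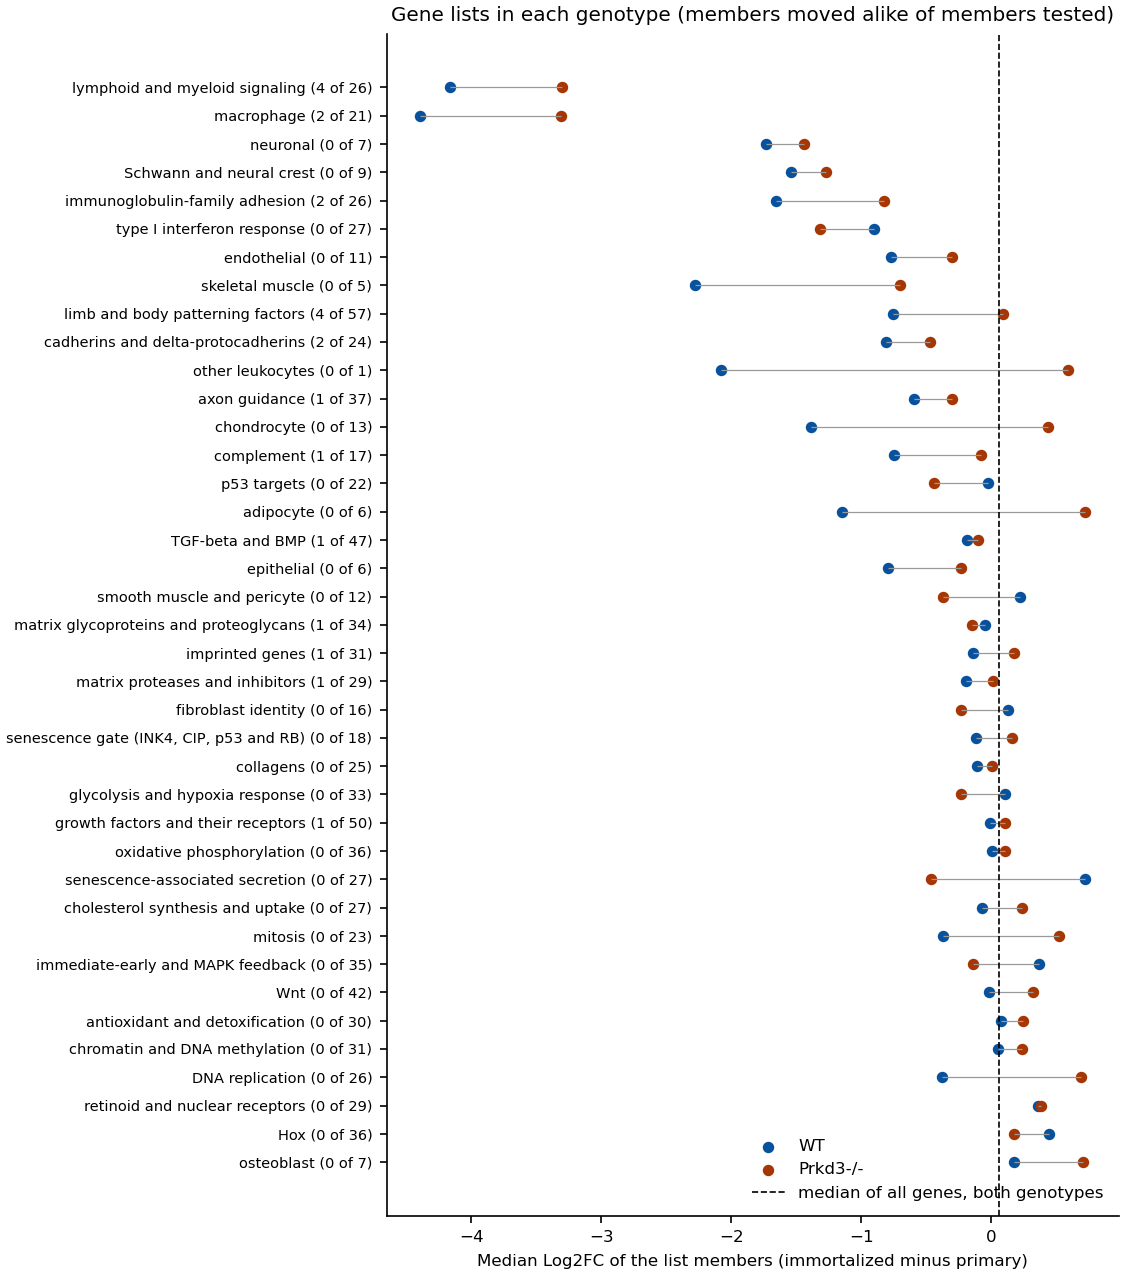
Median Log2FC of the tested members of each of 39 gene lists in WT (blue) and Prkd3-/- (brown), with the number that moved alike of the number tested beside each name, and the median of all genes as a dashed line at 0.06. The lists of macrophage markers and of lymphoid and myeloid signaling have medians between -3.30 and -4.39, and no other list median is below -2.28.

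The genotypes share no library, so genes called in one could be read in the other. In WT alone 361 of 19836 genes (1.82%) were called, 349 lower (1.76%) and 12 higher (0.0605%). With the embryo as a block 0 were called in WT, where 2784 genes had an unadjusted p under 0.05, so what follows rests on the fit without the block. Of the 349, 325 were tested in Prkd3-/-, where 303 (93.2%) were also lower, against 43.4% of all genes tested there, and 252 were lower by a Log2FC of at least 1. The 325 genes had a median Log2FC of -4.44 in WT and -2.59 in Prkd3-/-, and for 101 of them (31.1%) all 4 Prkd3-/- lines were below all 3 primary libraries, against 5.27% of all genes. Of the 12 genes higher in WT, all 12 were tested in Prkd3-/-, where 10 were higher, against 56.6% of all genes, and 0 were without overlap. Across 19310 genes tested in both, the Log2FC in WT and in Prkd3-/- had a Pearson r of 0.55 and a Spearman correlation of 0.366, a description over genes that share libraries and are not independent.

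In Prkd3-/- alone 0 of 20298 genes were called by edgeR, although 881 were lower (4.34%) and 450 higher (2.22%) at an unadjusted p under 0.05, and DESeq2 called 190. Of the 147 genes that moved alike, 64 (43.5%) were called in WT alone, which is 17.7% of the 361. Without overlap in both genotypes, 619 genes (2.92%) were lower, 290 (1.37%) were higher and 46 (0.217%) moved in opposite directions.

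**Figure D4:**
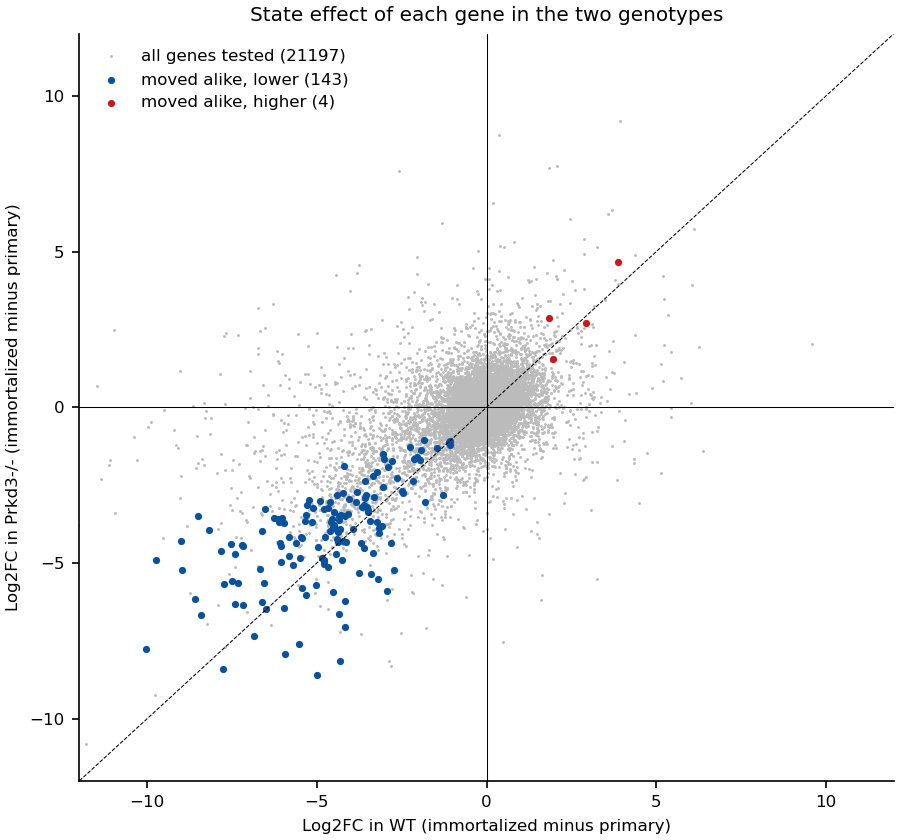
Log2FC of immortalized minus primary for each of 21197 genes, in WT (horizontal axis) and Prkd3-/- (vertical axis), with the 143 genes lower in both in blue, the 4 higher in both in red and equal change as a dashed line. The coloured points were selected on these values, and the blue ones have medians of -4.49 in WT and -3.94 in Prkd3-/-.

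No gene differed in its state effect between genotypes at an adjusted p under 0.05 in edgeR's interaction test, with 841 genes (3.97%) at an unadjusted p under 0.05 and 29 called by DESeq2. A p above the threshold does not show that the effects were equal, and 71 of the 143 genes that fell had a Log2FC within 1 unit between genotypes. The 5 genes of opposite sign with the smallest interaction p-values were Fgfbp1, Icam2, Arhgap22, Rem1 and Ctse, of 244 genes with a |Log2FC| of at least 1 and opposite signs. Icam2, an adhesion molecule of leukocytes and endothelium, was at 0.218 to 0.286 CPM in WT primary and 0.0306 to 0.0508 CPM in WT immortalized libraries, but at 0 to 0.0185 and 0.0270 to 0.0938 CPM in Prkd3-/- (unadjusted p = 0.000245 in edgeR's interaction test). Its rise in Prkd3-/- lay near the floor. There 3 counts were worth 0.0277 to 0.0842 CPM in primary and 0.0405 to 0.0573 CPM in immortalized libraries. Rem1, a GTPase of the RGK family, was at 1.95 to 2.003 CPM in WT primary and 2.69 to 12.3 CPM in WT immortalized libraries, but at 0.980 to 1.96 and 0 to 0.137 CPM in Prkd3-/- (unadjusted p = 0.000518 in edgeR's interaction test).

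The number of genes called rested on single libraries, while the calls of the 12 leading genes that fell did not. Leaving out 1 library at a time gave 31 to 120 called genes in 12 of the 13 cases and 408 without Prkd3-/- line 13a. Without 1 of WT primary clones 3, 4 or 5 the number was 48, 31 or 34. With the clone number as a block, 18 genes were called and all 18 moved alike and fell, among them A2m, Slc16a12, Tenm1, C2cd4a, Vat1l, Angptl7, Dcaf12l2, Pla2g7, Cul9 and Lhx2. DESeq2 called 859 genes with 779 lower and 80 higher, 147 of the 148 among them. Voom with a weight per state called 56 of the 147 genes that moved alike.

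**Figure D5:**
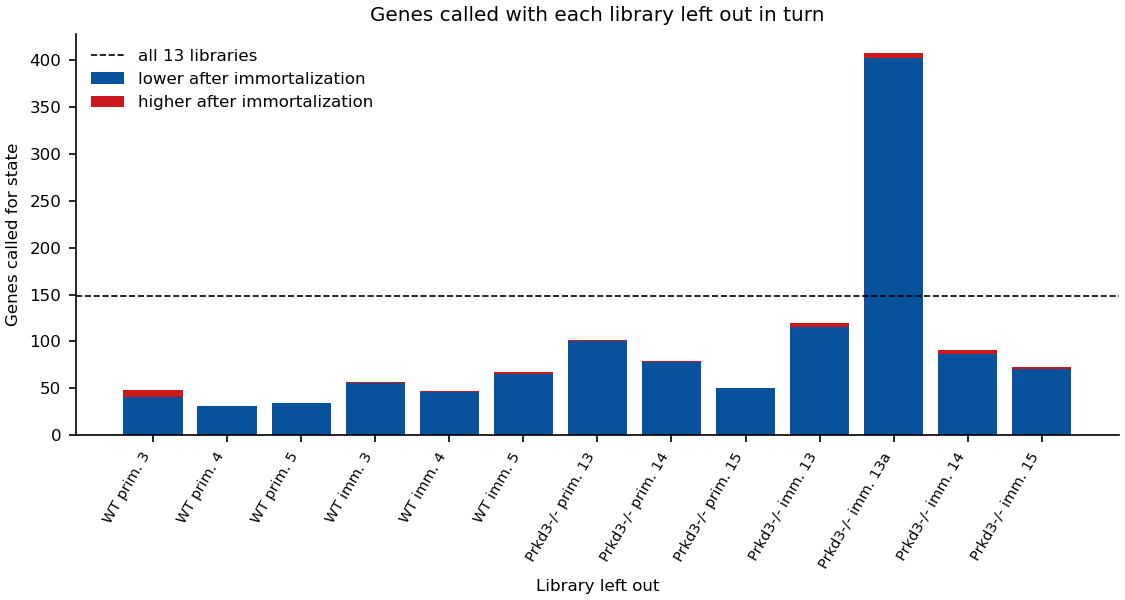
Number of genes called for state with each library left out in turn, split into lower (blue) and higher (red), with the 148 called over all libraries as a dashed line. The bar for Prkd3-/- line 13a reaches 408 and the others lie between 31 and 120.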

How the data were processed

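RNA-seq of poly-A RNA with paired reads was carried out on 13 MEF libraries. The authors deposited raw counts per gene, 1 table per genotype, made with STAR 2.7.10a on mm10 (GRCm38) and featureCounts of Subread 2.0.6, with FastQC 0.12.0 and SAMtools 1.18 also named in the submitters' processing notes. Per the header of the WT table, counting was unstranded and a pair overlapping several genes was added to each, so that overlapping and antisense genes share counts. The Prkd3-/- table has no such header, its 55487 genes and their lengths equal those of WT, and the tables were joined on gene identifier. The study describes the WT cells, and its text on the Prkd3-/- cultures was limited to the labels here. Genotype and table cannot be told apart, but state was compared within each.

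Counts were tested with edgeR 4.0.16 (R 4.3.3, TMM, filterByExpr over the 4 groups, robust quasi-likelihood) as genotype plus state, with a genotype by state model for the interaction and a fit within each genotype. Genes were called at an adjusted p under 0.01 and |Log2FC| of at least 1, and the interaction at an adjusted p under 0.05. The SE was |Log2FC| divided by the square root of F. The code was run on simulated counts with the same dispersion of a gene in all libraries and no clone effect. Those counts lacked the unequal spread of the real groups, so they do not show how the test performs on these data. Alternatives used DESeq2 1.42.0, limma 3.58.1 and Python 3.11.15. Clones are separate cultures, of which lines 13 and 13a may share an embryo. The study states for WT that one number follows one embryo before and after immortalization, so the number pairs the libraries, and Prkd3-/- numbers were taken alike. The study names no block for its own test and the main tests here used none, so their counts and p-values ignore this pairing. Blocked values are given beside results they change. Same-numbered libraries had correlations of -0.283 to 0.142 in their deviations from group means. Intervals and floors of 3 counts cover counting error only.

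The members, gene lists and tests were chosen with earlier results of these data known. Named were the 12 genes lower and up to 12 higher with the smallest p-values among those that moved alike, without predicted genes and genes sharing over 25% of exon bases. The rule also took up to 4 members of each list that moved alike, the highest-mean members of the fibroblast and senescence lists, Prkd3, the 5 opposite genes with the smallest interaction p, and genes a small count refers to. Others are said to be named after their values were seen or outside the rule. Of the genes, 55141 had a symbol in the GENCODE annotation. Some genes that the rule names are not reported here.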

Additional observations from a re-analysis of the deposited data

Results flagged for a closer look

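Outlying lines were looked for among the 4 immortalized Prkd3-/- lines, the only group large enough. On log2(CPM + 0.05), 12 of 100 checks (12%) found 1 line far from the other 3. Chance gives about 5% in independent checks of unselected items. The checks covered named genes and lists chosen with these data known, and some overlap, such as Cd68 and the macrophage sum. The 12% is therefore a description and cannot be weighed against that rate. The gap to the nearest line exceeded Dixon's critical value for a group of 4.

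Line 13a was the high one for Angptl7 (0.425 CPM, others 0.0469 to 0.0764), Cytip (0.0959 CPM, others 0.0135 to 0.0191), Rem1 (0.137 CPM, others 0), Cd68 (30.9 CPM, others 0.891 to 1.59) and the summed macrophage markers (484 CPM, others 16.5 to 29.1). Line 13 was the low one for Cdkn2a (0.229 CPM, others 69.2 to 187), its neighbour Cdkn2b (0.134 CPM, others 23.5 to 59.2), F730016J06Rik (0.0191 CPM, others 0.110 to 0.135) and the summed adipocyte markers (15.02 CPM, others 122 to 158). Line 14 was the low one for Sema3d (0.766 CPM, others 5.91 to 5.95), Arhgap22 (8.95 CPM, others 31.5 to 39.4) and the summed smooth muscle and pericyte markers (3744 CPM, others 5944 to 6526). A cause for these values was not tested.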

How the results depend on the processing

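Under every setting more of the genes called for state across both genotypes were lower than higher, but the number called varied. Against 148 called and 147 moved alike, DESeq2 gave 859 and 803, a minimum of 10 counts in every library 7 and 7, voom with a weight per state 90 and 87, and leaving out 1 library 31 to 408 and 31 to 405. Settings added after seeing the data gave 372 and 369 without primary 13 and line 13a of Prkd3-/-, and 383 and 377 without both lines of clone 13. An adjusted p under 0.05 gave 543 called genes and a test against a Log2FC of 1 gave 40. Scaling by RLE or library size, no filter, no robust option, summed clone 13 lines and a Log2FC of 2 stayed within 1.5 times. The median of all genes was 0.0588 with TMM, 0.0533 with RLE and -0.0109 with library size. The cause of these differences was not tested.

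With the clone number as a replicate block, 18 genes were called and 18 moved alike, and within WT and within Prkd3-/- 0 were called, against 361 and 0 without it (2784 and 946 genes at an unadjusted p under 0.05 in edgeR for the state effect within WT and the state effect within Prkd3-/-). Of 49 named genes that fell, 11 passed with the block. Prex2, Tspan10, Pcdhb17, F730016J06Rik and Atp13a2 also lost their call, and Bmi1, Trak2, Rps26-ps1 and Gm13050 their adjusted p under 0.01. The interaction count of 0 became 29 with DESeq2, 2 without both lines of clone 13, and 0 to 2 with 1 library left out (2 without line 14). WT alone gave 1361 with DESeq2 and 48 to 743 with 1 library left out, and Prkd3-/- alone 190 with DESeq2.

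Of 1855 values for 76 named genes under alternatives, 1337 kept direction and call, 482 lost the call, 9 gained it and 27 over 7 genes changed sign, none of them called. For Fn1 the Log2FC was -0.0624 with library size, -0.0298 with the count minimum, -0.0675 with voom, -0.0667 with the replicate block and -0.2865 to 0.2184 with 1 library left out. With voom Ccnd2 was at -0.2106, Arhgap22 at 0.0881 and Cdkn2a at -0.5413. Ccnd1 was at 0.0251 without both lines of clone 13, and Icam2 at 0.1221 averaged over genotypes. With 1 library left out Ccnd1 ranged from -0.1508 to 0.0959, Ccnd2 from -0.1156 to 0.2503, Icam2 from -0.8819 to 0.131 and Col1a1 from -0.0725 to 0.3077. At these depths, differences among genes under the 3-count floor were not detectable.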
